A study of Mus musculus with 27 samples.

Results

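Insulin-like growth factor 1 (IGF1) signalling was followed through 9 genes in the hearts of aging mice, namely the ligand gene Igf1, the receptor genes Igf1r and Igf2r, and the binding protein genes Igfbp2, Igfbp3, Igfbp4, Igfbp5, Igfbp6 and Igfbp7. They were taken by symbol from both tables of raw counts, in which 22855 genes were listed. All 9 passed the filter on low counts in both tissues, Igfbp2 only through the ages at which it was high. RNA-Seq had been carried out on PDGFRα-expressing cardiac fibroblasts, which were sorted by flow cytometry, and on whole hearts of C57BL/6 mice. For the fibroblasts, postnatal day 1 and 4 weeks had 3 samples each, and the labels held 2 at 14 weeks, 2 at 1 year and 2 at 1.5 years, while whole hearts had 3 samples at each of the 5 ages. The study's methods give 3 sets of fibroblasts at every age, more than the labels hold at the 3 older ages. The sample labels name no transgene and no treatment, so that age was the only labelled difference between the samples of a tissue, although the design line of the series speaks of infarction, which no sample label gives.

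IGF1 is a secreted growth factor that acts through IGF1R, a receptor tyrosine kinase which signals to PI3 kinase, AKT and the MAP kinases. IGF2R, the cation-independent mannose 6-phosphate receptor, takes up IGF2 for breakdown in lysosomes and does not signal as a kinase. The IGF binding proteins are secreted carriers which hold IGFs in blood and tissue and control their access to the receptors, and in the heart the pathway is known for its part in growth of the muscle before and after birth. IGFBP7 binds IGFs with low affinity and IGFBP6 prefers IGF2.

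Levels are given as CPM, the counts of a gene scaled to a fixed library size, with library sizes adjusted by trimmed mean of M values (TMM), and fold changes as log2 values with their standard error (SE). This scaling was carried out within each tissue, so CPM of fibroblasts and of hearts are not on the same scale. Differences between the tissues were tested in a joint fit of all samples. A gene was called at an adjusted p under 0.05 in the quasi-likelihood test of edgeR, with Benjamini-Hochberg adjustment across every gene that passed the filter. Total counts were 54615898 to 76758831 in the fibroblast samples and 46091271 to 67984404 in whole hearts. Fibroblast markers summed to 19300 to 39500 CPM in the sorted samples against 722 to 1450 CPM in hearts, with all 8 listed markers above 0, and cardiomyocyte markers summed to at most 759 CPM in the sorted samples. Endothelial markers were not even among the fibroblast samples, at 2220 CPM in replicate 3 at 4 weeks, 1580 and 1890 CPM at 14 weeks and 1560 CPM in replicate 5 at 1.5 years, against 344 to 758 CPM in the 8 others. At 14 weeks and 1 year the samples of both tissues held at most 0.57 CPM of Xist and at least 35.5 CPM of the Y-linked Ddx3y, whereas at 1.5 years they held at least 34.8 CPM of Xist and at most 0.397 CPM of Ddx3y. Sex and age therefore cannot be told apart between 1.5 years and 14 weeks. The 5 listed sex-linked genes summed to 215 to 339 CPM in fibroblasts at postnatal day 1, 425 to 633 CPM at 4 weeks and 156 to 165 CPM at 14 weeks. In hearts these sums were 208 to 380, 28.8 to 153 and 101 to 127 CPM. At 1.5 years they were 424 to 430 CPM in fibroblasts and 34.8 to 129 CPM in hearts. Such sums join Xist with Y-linked genes and do not give the sex of a sample at postnatal day 1 or 4 weeks. The part of sex in the changes up to 14 weeks and in the differences between the tissues was not tested.

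The promoters of 5 members are shown because these genes moved together between ages. Igf1r and Igf2r fell between postnatal day 1 and 4 weeks in both tissues, and Igfbp4, Igfbp6 and Igfbp7 were the members called higher by edgeR at 1.5 years than at 14 weeks in both, although the heart calls of Igfbp6 and Igfbp7 were lost with a length offset (0.76 and -0.01). The 250 bases before the start site are given from RefSeq on GRCm38.p6, 5′ to 3′ on the strand of the gene, at chr7:67952007-67952256 (plus strand) for Igf1r, chr17:12769707-12769956 (minus strand) for Igf2r, chr11:99040994-99041243 (plus) for Igfbp4, chr15:102143936-102144185 (plus) for Igfbp6 and chr5:77408046-77408295 (minus) for Igfbp7. Capitals mark matches on either strand to 3 motifs, and neighbouring matches run together. The TATA box was searched as TATAAA. The core of the GC box was searched with the letters GGGCGG. For the CCAAT box the search used its name as letters.
Igf1r: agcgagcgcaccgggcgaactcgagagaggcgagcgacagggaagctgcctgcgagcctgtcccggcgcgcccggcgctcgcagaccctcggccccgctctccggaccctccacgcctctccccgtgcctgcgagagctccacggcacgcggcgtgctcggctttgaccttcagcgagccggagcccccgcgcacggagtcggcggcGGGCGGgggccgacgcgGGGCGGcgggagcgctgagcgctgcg
Igf2r: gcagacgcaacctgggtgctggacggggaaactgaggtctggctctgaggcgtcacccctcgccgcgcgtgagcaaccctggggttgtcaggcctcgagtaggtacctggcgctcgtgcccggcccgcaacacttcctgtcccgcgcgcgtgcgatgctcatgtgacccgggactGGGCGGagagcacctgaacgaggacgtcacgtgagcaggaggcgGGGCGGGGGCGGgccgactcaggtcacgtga
Igfbp4: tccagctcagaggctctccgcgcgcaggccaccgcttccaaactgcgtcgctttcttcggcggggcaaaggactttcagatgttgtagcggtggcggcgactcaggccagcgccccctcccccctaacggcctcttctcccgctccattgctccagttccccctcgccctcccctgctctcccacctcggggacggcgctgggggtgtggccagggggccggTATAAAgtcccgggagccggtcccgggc
Igfbp6: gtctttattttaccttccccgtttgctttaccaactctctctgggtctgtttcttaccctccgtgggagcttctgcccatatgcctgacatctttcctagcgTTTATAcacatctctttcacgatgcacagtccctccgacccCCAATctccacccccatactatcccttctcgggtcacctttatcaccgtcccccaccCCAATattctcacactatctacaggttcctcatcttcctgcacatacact
Igfbp7: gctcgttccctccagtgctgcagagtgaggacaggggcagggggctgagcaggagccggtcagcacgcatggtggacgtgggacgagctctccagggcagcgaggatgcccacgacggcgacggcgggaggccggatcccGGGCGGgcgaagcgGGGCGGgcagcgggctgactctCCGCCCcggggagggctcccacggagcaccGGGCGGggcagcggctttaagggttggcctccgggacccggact

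All 9 members were found in the promoter table, Igfbp2 with more than 1 start site. Of 32851 promoters of the same length, 32.7% held the GC box core, 12.4% the TATA box and 33.8% the CCAAT box. The GC box core was present 2 times in the window of Igf1r, 3 times in that of Igf2r and 4 times in that of Igfbp7, and was not matched in those of Igfbp4 and Igfbp6. The TATA box was matched 1 time in Igfbp4 and 1 time in Igfbp6, and the CCAAT box 2 times in Igfbp6. The windows of Igf1r and Igf2r held 42 and 27 CG dinucleotides, that of Igfbp7 26, that of Igfbp4 22 and that of Igfbp6 7, with a median of 6 over all promoters. A match describes the letters of the window and was not tested as a binding site.

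All 9 members varied over the 5 ages in cardiac fibroblasts, where 19.9% of all genes were called, and all 9 varied over the ages in whole hearts, where 34.3% were called. Igfbp2 counts among the 9 only because it passed the filter through the ages at which it was high. From postnatal day 1 to 4 weeks 6 members were called in fibroblasts, with 4 higher and 2 lower, against 15.5% of all genes (9.28% higher and 6.20% lower), and 5 members were called in whole hearts, with 2 higher and 3 lower, against 18.2% (12.1% higher and 6.10% lower). From 4 to 14 weeks no member was called in fibroblasts (3.87% of all genes), although 4 had an unadjusted edgeR p under 0.05 and DESeq2 called 2, Igfbp3 and Igfbp7. In hearts 1 member, Igfbp7, was lower at 14 weeks than at 4 weeks, against 1.61% of all genes called and 0.850% called lower. From 14 weeks to 1 year 3 members were higher in fibroblasts, against 1.78% of all genes called and 1.31% called higher. No member was called in hearts over that interval by edgeR (0.972% of all genes), where 4 had an unadjusted p under 0.05 and DESeq2 called 1, Igf1. The percentages belong to the adjusted edgeR calls. Shares of all genes for unadjusted p or DESeq2 are not given, so those counts only limit the absence of calls. From 14 weeks to 1.5 years 3 members were higher in fibroblasts (2.72% of all genes called, 1.91% higher), and in hearts 3 were higher and 1 lower (12.8% called, 4.91% higher and 7.86% lower).

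**Figure D1:**
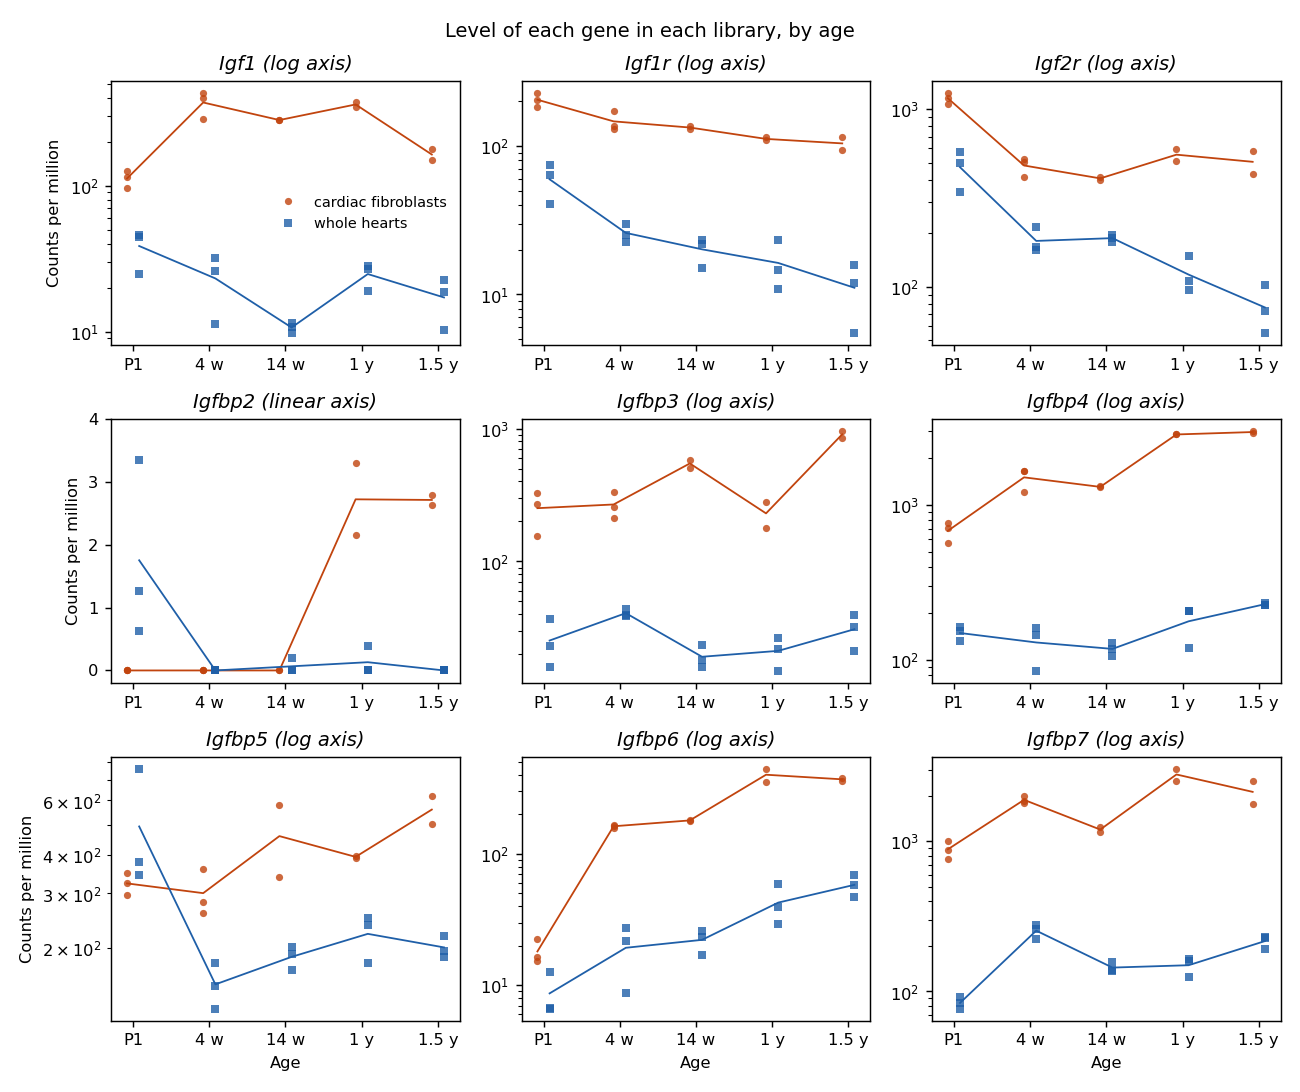
Level of each of the 9 genes in CPM (TMM-scaled within each tissue, so not on the same scale between tissues) against age, with 1 point per library (circles, cardiac fibroblasts; squares, whole hearts) and lines through the age means, on log axes except for Igfbp2. Igf1 lies above its postnatal day 1 level at every later age in fibroblasts, Igf1r and Igf2r are highest at postnatal day 1 in both tissues, and Igfbp2 is at 0 in the 8 youngest fibroblast libraries and at 2.15 to 3.29 CPM in the 4 oldest.

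Igf1, the ligand gene, rose 3.31-fold in fibroblasts between postnatal day 1 and 4 weeks and showed no such rise in whole hearts. In fibroblasts Igf1 was at 114, 95.9 and 126 CPM at postnatal day 1, at 397, 431 and 286 CPM at 4 weeks, at 280 and 283 CPM at 14 weeks, at 348 and 372 CPM at 1 year and at 178 and 149 CPM at 1.5 years. Every later sample lay above the 3 samples of postnatal day 1, and the ranges of 4 weeks and 1 year overlapped while all other neighbours in the order of the age means were apart. The log2 fold change from postnatal day 1 to 4 weeks was 1.73 (SE 0.16, adjusted p = 1.32e-05, edgeR). From 14 weeks to 1.5 years the log2 fold change was -0.79 (SE 0.20), with both samples below both of 14 weeks, and the adjusted p of 0.0547 by edgeR did not pass. Without replicate 3 at 4 weeks it was 0.0155.

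In whole hearts Igf1 was at 25.0, 44.7 and 46.2 CPM at postnatal day 1, at 26.0, 11.3 and 32.2 CPM at 4 weeks, at 9.76, 11.5 and 10.8 CPM at 14 weeks, at 27, 19.1 and 28.4 CPM at 1 year and at 22.5, 10.3 and 18.7 CPM at 1.5 years. The 14-week samples were the lowest group, and neighbouring ages overlapped throughout the order of the age means. The log2 fold change from postnatal day 1 to 4 weeks was -0.74 (SE 0.35, adjusted p = 0.167), and the difference between the tissues was itself called, at 2.46 (SE 0.43, adjusted p = 0.000671, edgeR interaction of tissue and age). From 14 weeks to 1 year the log2 fold change was 1.21 (SE 0.36), with all 3 samples above those of 14 weeks, and the adjusted p of 0.113 became 0.0442 without replicate 2 at 4 weeks. From 4 to 14 weeks it was -1.11 (SE 0.36, adjusted p = 0.153), which became -1.44 (adjusted p = 0.0364) without that same library. In whole tissue a smaller number of cells of a type and less RNA per cell cannot be told apart.

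Igf2, the fetal ligand and not a member of the set, moved the opposite way in fibroblasts over the same interval. It fell from 5790 ± 455 CPM (SD, n = 3) at postnatal day 1 to 96.4 ± 26.7 CPM (n = 3) at 4 weeks in fibroblasts, by 5.91 on the log2 scale (SE 0.26, adjusted p = 4.35e-08), and from 1880 ± 315 to 146 ± 15.2 CPM in hearts (adjusted p = 1.13e-08, edgeR). Per kilobase of exon, Igf1 made up 1.12% ± 0.234 (n = 3) of the sum of both ligands in fibroblasts at postnatal day 1, 68.7% ± 10.4 (n = 3) at 4 weeks, 69.4% ± 2.65 (n = 2) at 14 weeks, 83.7% ± 3.13 (n = 2) at 1 year and 50.5% ± 9.47 (n = 2) at 1.5 years. In whole hearts the share of Igf1 was 1.19% ± 0.383 at postnatal day 1 and at most 20.9% in any later sample. Igf2 fell again in hearts between 4 and 14 weeks (log2 fold change -2.29, SE 0.21, adjusted p = 4.26e-05) and was higher at 1 year (1.34, SE 0.21, adjusted p = 0.00913) and at 1.5 years (1.06, SE 0.21, adjusted p = 0.00393) than at 14 weeks.

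**Figure D2:**
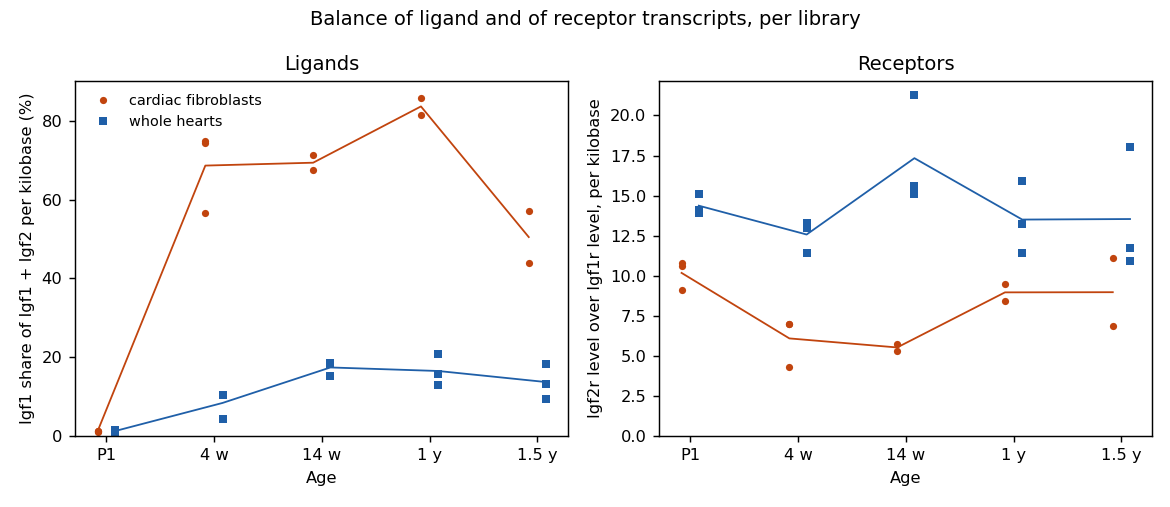
Share of Igf1 in the summed level of Igf1 and Igf2 (left, percent) and level of Igf2r divided by that of Igf1r (right), both per kilobase of exon, against age, with 1 point per library and lines through the age means. The share of Igf1 is between 0.827% and 1.59% in every library of postnatal day 1 and 43.8% or more in every later fibroblast library.

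Both receptor genes were highest at postnatal day 1 in both tissues. Igf2r was at 1070, 1150 and 1230 CPM in fibroblasts at postnatal day 1, at 526, 504 and 413 CPM at 4 weeks, at 400 and 414 CPM at 14 weeks, at 599 and 508 CPM at 1 year and at 578 and 431 CPM at 1.5 years. It fell 2.39-fold by 4 weeks (log2 fold change -1.26, SE 0.14, adjusted p = 6.09e-05), and none of the later steps passed. In whole hearts Igf2r was at 497, 572 and 342 CPM at postnatal day 1, at 216, 167 and 160 CPM at 4 weeks, at 189, 178 and 196 CPM at 14 weeks, at 95.9, 107 and 148 CPM at 1 year and at 102, 72.7 and 54.7 CPM at 1.5 years. Here it fell in steps, 2.60-fold by 4 weeks (log2 fold change -1.38, SE 0.23, adjusted p = 0.000464) and 2.45-fold between 14 weeks and 1.5 years (log2 fold change -1.29, SE 0.23, adjusted p = 0.00251), with no overlap in either case. From 14 weeks to 1.5 years the fibroblast value was 0.31 (SE 0.17, adjusted p = 0.467), and the ages differed between the tissues over all 5 ages (adjusted p = 0.00352, edgeR).

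Igf1r, the signalling receptor, was at 182, 227 and 205 CPM in fibroblasts at postnatal day 1, at 136, 130 and 173 CPM at 4 weeks, at 136 and 130 CPM at 14 weeks, at 114 and 109 CPM at 1 year and at 94.0 and 114 CPM at 1.5 years. It fell 1.40-fold by 4 weeks (log2 fold change -0.48, SE 0.14, adjusted p = 0.0349), and none of the later steps passed. That call was lost on leaving out any 1 of 8 of the 12 fibroblast libraries (replicates 2 and 3 of postnatal day 1, 1 and 2 of 4 weeks, and each of 14 weeks and 1 year), with an adjusted p of 0.0572 to 0.119 and a log2 fold change of -0.62 to -0.40 over all 12 omissions. In whole hearts Igf1r was at 63.8, 74.1 and 40.9 CPM at postnatal day 1, at 30, 22.7 and 25.2 CPM at 4 weeks, at 21.9, 15.1 and 23.4 CPM at 14 weeks, at 10.9, 14.6 and 23.4 CPM at 1 year and at 15.8, 12 and 5.48 CPM at 1.5 years. The 3 neonatal samples lay above all others, and the fall to 4 weeks was 2.30-fold (log2 fold change -1.20, SE 0.35, adjusted p = 0.0237). It did not pass without replicate 1 or 2 of postnatal day 1 or replicate 2 or 3 of 4 weeks (adjusted p of 0.0647 to 0.0983). The difference between 1.5 years and 14 weeks was -0.86 (SE 0.35, adjusted p = 0.119) and passed only without replicate 1 of 1.5 years (-1.20, adjusted p = 0.0357). Igf1r was the single member for which the tissue-by-age test over 5 ages did not pass (adjusted p = 0.153, edgeR).

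Per kilobase of exon Igf2r stood above Igf1r in every sample. The ratio of Igf2r to Igf1r in fibroblasts was 10.2 ± 0.932 (n = 3) at postnatal day 1, 6.08 ± 1.53 (n = 3) at 4 weeks, 5.52 ± 0.290 (n = 2) at 14 weeks, 8.95 ± 0.772 (n = 2) at 1 year and 8.96 ± 3.02 (n = 2) at 1.5 years. In whole hearts it was 12.6 to 17.3 at the age means, with single samples from 10.9 to 21.3. The plot of ligand and receptor balance shows that the samples of the youngest and oldest hearts overlapped in this ratio although both receptors were lower in the older ones.

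Among the called changes between adjacent ages Igfbp6 had the largest fold change of the 9 genes, and Igfbp4 and Igfbp7 rose beside it in fibroblasts. Igfbp6 was at 22.5, 16.4 and 15.4 CPM in fibroblasts at postnatal day 1, at 163, 158 and 165 CPM at 4 weeks, at 179 and 180 CPM at 14 weeks, at 445 and 354 CPM at 1 year and at 380 and 357 CPM at 1.5 years. It rose 8.94-fold by 4 weeks (log2 fold change 3.16, SE 0.16, adjusted p = 8.86e-08), 2.23-fold from 14 weeks to 1 year (1.15, SE 0.18, adjusted p = 0.00832) and 2.05-fold from 14 weeks to 1.5 years (1.04, SE 0.18, adjusted p = 0.0107). In whole hearts Igfbp6 was at 12.7, 6.63 and 6.72 CPM at postnatal day 1, at 8.78, 27.4 and 21.7 CPM at 4 weeks, at 25.9, 17.1 and 23.5 CPM at 14 weeks, at 39.6, 58.8 and 29.3 CPM at 1 year and at 58.1, 47.1 and 69.1 CPM at 1.5 years. The age means ascended from the youngest to the oldest hearts, but samples of 4 weeks overlapped with those of postnatal day 1. The heart rises were 2.22-fold by 4 weeks (1.15, SE 0.37, adjusted p = 0.0391) and 2.62-fold from 14 weeks to 1.5 years (1.39, SE 0.37, adjusted p = 0.0209), and the first was smaller than in fibroblasts by a log2 difference of 2.01 (SE 0.45, adjusted p = 0.0065, edgeR). The heart rise by 4 weeks did not pass on leaving out any 1 of 6 libraries (replicates 2 and 3 of postnatal day 1 and of 4 weeks, replicate 3 of 14 weeks and replicate 1 of 1 year), with an adjusted p of 0.0516 to 0.191.

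Igfbp4, which codes for a binding protein that is cleaved by the protease PAPP-A, was at 768, 566 and 708 CPM in fibroblasts at postnatal day 1, at 1670, 1650 and 1210 CPM at 4 weeks, at 1300 and 1320 CPM at 14 weeks, at 2860 CPM in both samples at 1 year and at 3020 and 2910 CPM at 1.5 years. It rose 2.22-fold by 4 weeks (log2 fold change 1.15, SE 0.15, adjusted p = 0.000179) and a second time from 14 weeks, by 1.13 at 1 year (SE 0.18, adjusted p = 0.00999) and 1.18 at 1.5 years (SE 0.18, adjusted p = 0.00658). In whole hearts Igfbp4 was at 162, 153 and 131 CPM at postnatal day 1, at 84.4, 144 and 159 CPM at 4 weeks, at 118, 106 and 128 CPM at 14 weeks, at 205, 207 and 119 CPM at 1 year and at 227, 232 and 226 CPM at 1.5 years. The 3 oldest hearts lay above every other heart sample. The early step was -0.20 (SE 0.22, adjusted p = 0.605), which differed from that of fibroblasts by 1.35 (SE 0.30, adjusted p = 0.00644), and the late rise was 1.94-fold (0.96, SE 0.22, adjusted p = 0.0104, edgeR).

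Igfbp7 was at 1010, 766 and 882 CPM in fibroblasts at postnatal day 1, at 1860, 2020 and 1800 CPM at 4 weeks, at 1150 and 1250 CPM at 14 weeks, at 3060 and 2530 CPM at 1 year and at 2510 and 1770 CPM at 1.5 years. It rose by 1.10 at 4 weeks (SE 0.15, adjusted p = 0.000317), had a log2 fold change of -0.66 from 4 to 14 weeks (SE 0.17, adjusted p = 0.0564) and rose from 14 weeks by 1.22 at 1 year (SE 0.19, adjusted p = 0.00759) and 0.84 at 1.5 years (SE 0.19, adjusted p = 0.0360). The 14-week value passed on leaving out replicate 1 of postnatal day 1 or either sample of 1.5 years (adjusted p of 0.0283 to 0.0451). In whole hearts Igfbp7 was at 91.3, 76.7 and 83.8 CPM at postnatal day 1, at 225, 277 and 261 CPM at 4 weeks, at 157, 136 and 140 CPM at 14 weeks, at 160, 165 and 124 CPM at 1 year and at 193, 228 and 229 CPM at 1.5 years. It rose 3.03-fold by 4 weeks (1.60, SE 0.15, adjusted p = 9.24e-07), fell 1.77-fold by 14 weeks (-0.82, SE 0.14, adjusted p = 0.00846) and was 1.50-fold higher at 1.5 years than at 14 weeks (0.59, SE 0.14, adjusted p = 0.0139, edgeR). Fibroblast markers summed to 1110 to 1450 CPM in hearts of 4 weeks and 722 to 869 CPM at 14 weeks, with 2 of 8 lower, and their part in the fall was not tested. The fall did not pass without replicate 2 (adjusted p = 0.065) or replicate 3 (adjusted p = 0.0612) of 14 weeks.

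**Figure D3:**
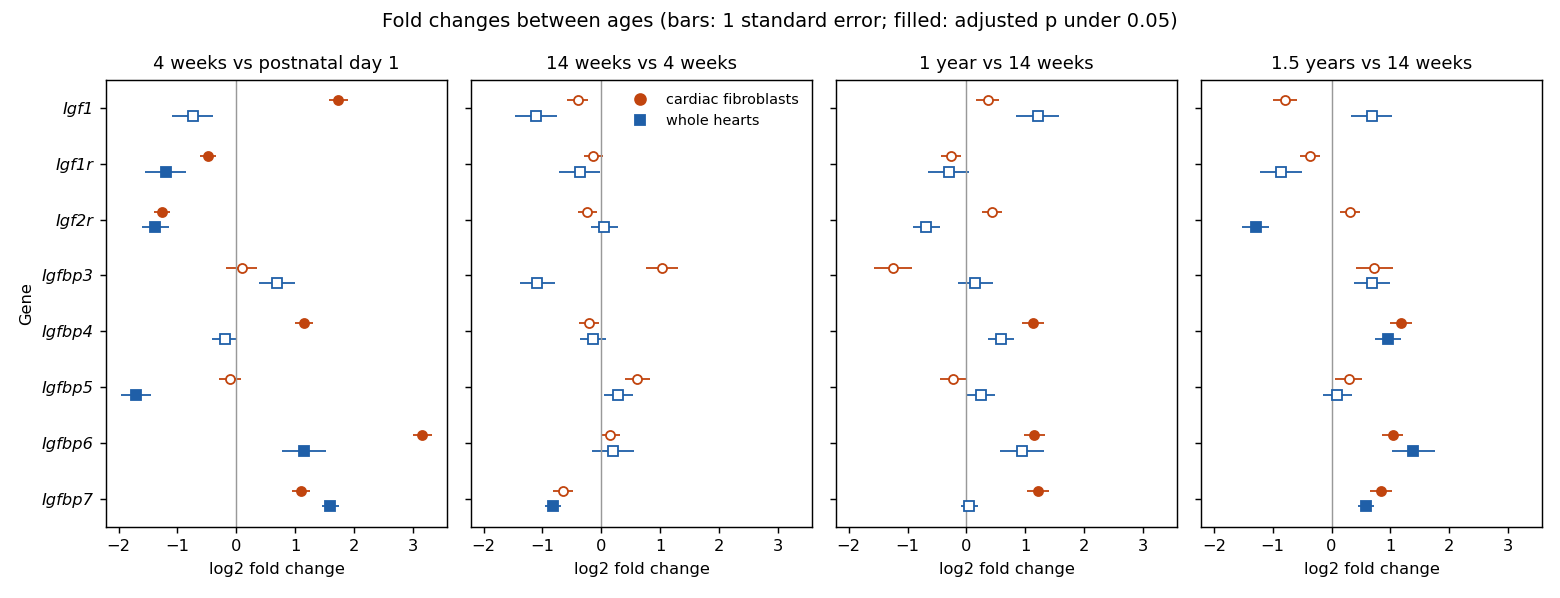
Log2 fold change of 8 members in 4 comparisons of ages (horizontal axis; circles, cardiac fibroblasts; squares, whole hearts), with bars of 1 SE and filled symbols for an adjusted p under 0.05 in edgeR. Igfbp4, Igfbp6 and Igfbp7 lie to the right of 0 in both tissues at 1.5 years against 14 weeks, and Igf1 lies on opposite sides of 0 in the tissues at 4 weeks against postnatal day 1 (1.73 and -0.74); Igfbp2 is left out because several groups were at 0.

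The late rises of Igfbp4, Igfbp6 and Igfbp7 in fibroblasts rested on 2 samples at each age. Leaving out either sample of 14 weeks ended all 3 calls at 1 year and at 1.5 years (adjusted p of 0.0717 to 0.318), as did leaving out replicate 4 of 1 year for that age (0.0696 to 0.114). Without replicate 4 of 1.5 years Igfbp6 (0.0633) and Igfbp7 (0.249) did not pass, and Igfbp7 at 1.5 years also missed without replicate 1 of 4 weeks (0.0526) or replicate 3 of postnatal day 1 (0.0501). Endothelial markers summed to 1580 and 1890 CPM at 14 weeks, to 526 and 742 CPM at 1 year and to 344 and 1560 CPM at 1.5 years. Macrophage markers summed to 33.8 and 42.4 CPM, to 15 and 16.5 CPM and to 50.2 and 65.2 CPM at these ages. Immediate early and heat shock genes summed to 28000 to 30900 CPM, to 34300 to 36200 CPM and to 38900 to 41200 CPM. No marker of these lists was at 0 in all samples of an age, and their part in the result was not tested.

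In whole hearts the late comparison moved with transcript length. Between 14 weeks and 1.5 years the log2 fold changes of 12972 genes with a length had a Spearman correlation of -0.51 with exon length (a description across genes, which do not count as replicates). The 500 genes nearest in length had a median log2 fold change of 0.68 for Igfbp6 (1112 bases of exon) and Igfbp7 (1209 bases), -0.08 for Igfbp4 (4416 bases) and -0.47 for Igf2r (9308 bases). With an offset smoothed on length, the calls of Igfbp6 (0.76, adjusted p = 0.157) and Igfbp7 (-0.01, adjusted p = 1) were lost, that of Igf1 was gained (1.21, adjusted p = 0.0275), and those of Igfbp4 (1.05, adjusted p = 0.00997) and Igf2r (-0.82, adjusted p = 0.013) were not lost. Macrophage markers summed to 213 to 239 CPM in hearts of 14 weeks and 335 to 484 CPM at 1.5 years, with 2 of 8 higher, and fibroblast markers to 722 to 869 and 1050 to 1240 CPM, with 2 of 8 higher. Of 8 cardiomyocyte markers 3 were higher and 3 lower, with sums of 63900 to 71800 and 65800 to 88500 CPM, and of 9 endothelial markers 2 were higher and 1 lower, with sums of 838 to 868 and 713 to 777 CPM. Pericyte and smooth muscle markers summed to 1030 to 1080 and 640 to 922 CPM, with 1 of 8 lower. Mitochondrial genes took 27.7% to 34.5% of the counts at 14 weeks and 18.5% to 26.5% at 1.5 years. None of these markers was at 0 in all hearts of an age, and the part of these shifts in the heart changes was not tested. The calls of Igfbp6 and Igfbp7 also missed without replicate 2 or 3 of 14 weeks or replicate 3 of 1.5 years (adjusted p of 0.0667 to 0.0915 and of 0.0515 to 0.0648). In fibroblasts over the same ages the correlation was -0.18, and the offset ended the call of Igfbp7 (0.57, adjusted p = 0.117). At 1 year against 14 weeks in fibroblasts the correlation was -0.24. The 500 genes nearest in length there had a median of 0.35 for Igfbp6 and 0.32 for Igfbp7. With the offset 3 members were called in that comparison, the same number as without it.

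Igfbp5, whose product also binds extracellular matrix, fell early in whole hearts and not detectably in fibroblasts. In whole hearts it was at 344, 761 and 378 CPM at postnatal day 1, at 127, 151 and 179 CPM at 4 weeks, at 191, 169 and 201 CPM at 14 weeks, at 237, 250 and 179 CPM at 1 year and at 219, 196 and 187 CPM at 1.5 years. It fell 3.24-fold by 4 weeks (log2 fold change -1.70, SE 0.25, adjusted p = 0.000107), all neonatal samples lying above all others. In fibroblasts it was at 350, 324 and 296 CPM at postnatal day 1, at 360, 282 and 260 CPM at 4 weeks, at 582 and 338 CPM at 14 weeks, at 398 and 390 CPM at 1 year and at 619 and 502 CPM at 1.5 years, and no step between ages passed. The early fold changes differed by 1.59 (SE 0.34, adjusted p = 0.00459, edgeR).

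Igfbp3, the main carrier of IGFs in blood, was at 329, 155 and 271 CPM in fibroblasts at postnatal day 1, at 257, 335 and 213 CPM at 4 weeks, at 583 and 509 CPM at 14 weeks, at 178 and 282 CPM at 1 year and at 849 and 961 CPM at 1.5 years. The samples of 14 weeks and 1.5 years stood apart above the rest, and the 1-year samples overlapped with the youngest. Over the 5 ages it was called (adjusted p = 0.000705), but the steps of 1.03 from 4 to 14 weeks (SE 0.28, adjusted p = 0.0688), -1.25 from 14 weeks to 1 year (SE 0.32, adjusted p = 0.0764) and 0.73 from 14 weeks to 1.5 years (SE 0.31, adjusted p = 0.322) did not pass. The first passed without replicate 1 (adjusted p = 0.0468) or replicate 2 (adjusted p = 0.0253) of postnatal day 1, and the second without that replicate 2 (adjusted p = 0.0278, edgeR). In whole hearts the samples ran from 15 to 43.9 CPM, with 39.2, 39.5 and 43.9 CPM at 4 weeks above the 16.0, 18.0 and 23.6 CPM of 14 weeks. That difference of -1.09 (SE 0.30) had an adjusted p of 0.0868, and the step from postnatal day 1 to 4 weeks (0.69, SE 0.30, adjusted p = 0.129) passed without replicate 1 of postnatal day 1 (adjusted p = 0.0285).

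Igfbp2, a major binding protein of fetal life, was the rarest member. No count was assigned to it in any of the 8 fibroblast samples of postnatal day 1, 4 weeks and 14 weeks, where 3 counts per library would be 0.0404 to 0.047 CPM. It received 150 and 204 counts at 1 year (2.15 and 3.29 CPM) and 162 and 179 counts at 1.5 years (2.63 and 2.79 CPM), at least 57.9-fold and at least 57.7-fold higher than a floor of 3 counts per library at 14 weeks. Over the 5 ages it was called in fibroblasts (adjusted p = 0.0142), but the single steps were not (adjusted p of 0.152 and 0.133 by edgeR), while DESeq2 gave 0.00338 and 0.00266. Within fibroblasts Igfbp2 passed the filter only through the samples of 1 year and 1.5 years, and within hearts only through those of postnatal day 1. Its tests over age in each tissue are therefore no separate support for these differences. In whole hearts it had 116, 325 and 59 counts at postnatal day 1 (1.27, 3.35 and 0.633 CPM) and none in the 3 samples of 4 weeks, at least 39.2-fold lower (adjusted p = 0.0527, edgeR). Later hearts held 10 counts in replicate 3 of 14 weeks, 20 counts in replicate 1 of 1 year and none in the others. The early step passed on leaving out any 1 of the 6 hearts of 1 year and 1.5 years (adjusted p of 0.0381 to 0.0484).

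Per kilobase of exon Igfbp7 was the most abundant binding protein transcript in fibroblasts at every age and in hearts from 4 weeks onward. In fibroblasts it made up 70.7% ± 1.13 (SD, n = 3) of the 6 binding protein genes at postnatal day 1, 71.6% ± 1.96 (n = 3) at 4 weeks, 58.3% ± 2.88 (n = 2) at 14 weeks, 66.7% ± 2.28 (n = 2) at 1 year and 55.7% ± 5.71 (n = 2) at 1.5 years. The share of Igfbp4 was 14.9% to 21.4% at the age means, and that of Igfbp6 went from 1.57% ± 0.204 at postnatal day 1 to 10.6% ± 1.07 at 1.5 years. In hearts of postnatal day 1 Igfbp5 was at 39.6% ± 12 and Igfbp7 at 35.2% ± 7.56, which did not differ beyond their spread, and at 4 weeks they were at 8.59% ± 0.866 and 71.5% ± 3.16 (n = 3 each). Igfbp6 was 3.96% ± 1.76 of the heart total at postnatal day 1 and 16.0% ± 2.52 at 1.5 years. The 6 genes together took 2160 ± 324 CPM in fibroblasts at postnatal day 1 and 6940 ± 625 CPM at 1.5 years. In hearts they took 762 ± 227 and 735 ± 14.0 CPM at these ages, on a scale set within that tissue.

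**Figure D4:**
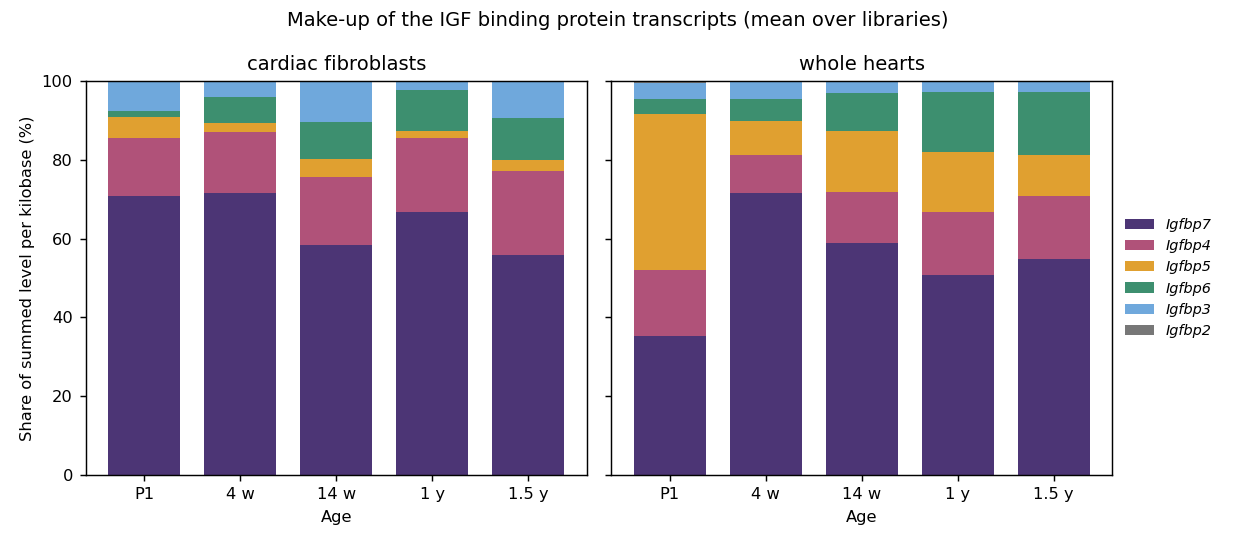
Share of each binding protein gene in their summed level per kilobase of exon (stacked bars, percent, mean over the libraries of an age) against age, in cardiac fibroblasts (left) and whole hearts (right). Igfbp5 takes 39.6% in hearts of postnatal day 1 and 8.59% at 4 weeks, and Igfbp2 is too low to be seen.

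Averaged over ages, 8 members were higher in cardiac fibroblasts than in whole hearts, where 56.8% of all genes were called and 27.7% were higher. The excess was 11.2-fold for Igfbp3 (log2 3.48, SE 0.15), 8.75-fold for Igf1 (3.13, SE 0.15), 8.23-fold for Igfbp4 (3.04, SE 0.11) and 8.17-fold for Igfbp7 (3.03, SE 0.08), with no overlap between the tissues. Igfbp6 (4.80-fold) and Igf1r (4.78-fold) followed, then Igf2r (2.66-fold) and Igfbp5 (1.37-fold, log2 0.45, SE 0.11, adjusted p = 0.00166, edgeR). The call of Igfbp5 was lost with the length offset (0.18, adjusted p = 0.222). Its excess in fibroblasts did not hold at postnatal day 1. At that age its mean was 494 CPM in hearts (344 to 761) and 324 CPM in fibroblasts (296 to 350), each scaled within its tissue. Igfbp2 was not called. Over all genes with a length, the log2 fold change between the tissues had a Spearman correlation of 0.28 with exon length. The 500 genes nearest in length had a median of -1.23 for Igfbp6 and -1.14 for Igfbp7. For Igf1r, Igf1 and Igf2r it was 0.82, 0.56 and 0.55. The order of the members by fold excess was not adjusted for length. Immediate early and heat shock genes summed to 12100 to 41200 CPM in the sorted samples against 166 to 590 CPM in hearts, and the part of sorting in these differences was not tested. Over the 5 ages 8 members had age patterns that differed between the tissues, against 14.8% of all genes, and from postnatal day 1 to 4 weeks 4 did, all with the higher log2 fold change in fibroblasts, against 7.14% of all genes and 3.18% in that direction.

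The early rise of 4 members in fibroblasts went along with other shifts in the sorted samples. Immediate early and heat shock genes summed to 12100 to 17100 CPM at postnatal day 1 and 28300 to 30700 CPM at 4 weeks, with 10 of 11 higher. Macrophage markers summed to 135 to 235 CPM and 276 to 467 CPM, with 3 of 8 higher, and cardiomyocyte markers to 696 to 759 CPM and 64.2 to 183 CPM, with 5 of 8 lower. Pericyte and smooth muscle markers summed to 837 to 1090 and 372 to 447 CPM, with 5 of 8 lower and 1 higher. No listed marker was at 0 in all samples of either age, and their part in the rise was not tested. In whole hearts all 8 macrophage markers were higher at 4 weeks, with sums of 65.4 to 82.1 and 315 to 386 CPM, and 5 of 9 endothelial markers were higher, with sums of 623 to 884 and 1170 to 1400 CPM. Pericyte and smooth muscle markers in hearts summed to 450 to 568 and 801 to 1330 CPM, with 3 of 8 higher and 1 lower. Cardiomyocyte markers in hearts summed to 37000 to 43700 and 64800 to 77100 CPM, with 6 of 8 higher, and the part of these shifts was not tested.

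Among 11 further genes of the extracellular IGF axis, which covers the other ligand, carriers, insulin receptors and proteases that free IGFs, 4 of 10 tested were called in fibroblasts at 4 weeks against postnatal day 1, 1 higher and 3 lower, against 9.28% of all genes higher and 6.20% lower (median log2 fold change -1.60, against 0 over all genes). Htra1, a secreted protease that cleaves binding proteins, rose by 2.12 (SE 0.16, adjusted p = 2.32e-06), whereas Pappa, the protease for IGFBP4, fell from 30.1 ± 17.6 to 5.73 ± 3.09 CPM (adjusted p = 0.00502) and Adam12 from 50.3 ± 13.1 to 10.5 ± 2.32 CPM (adjusted p = 0.000481), beside Igf2. Pappa was higher again at 14 weeks, at 23.7 ± 7.63 CPM (n = 2, log2 fold change 2.05, SE 0.52, adjusted p = 0.0484, edgeR). In hearts Htra1 also rose by 4 weeks (1.17, SE 0.15, adjusted p = 2.66e-05), as did Igfals, the acid-labile subunit of the circulating IGF complex (3.36, SE 0.51, adjusted p = 0.000174). The insulin receptor gene Insr was lower at 1.5 years than at 14 weeks in hearts (-1.42, SE 0.30, adjusted p = 0.00542). That is the heart comparison in which log2 fold changes moved with exon length, and the part of length was not tested. No gene of this list was called at 1 or 1.5 years against 14 weeks in fibroblasts.

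The growth hormone axis, which drives IGF1 in liver through STAT5, was called for 2 of 6 genes in fibroblasts at 4 weeks against postnatal day 1 (15.5% of all genes) and for 3 of 6 in hearts (18.2%). Stat5b rose (0.71, SE 0.16, adjusted p = 0.00865) and Cish, a feedback inhibitor, fell (-1.52, SE 0.38, adjusted p = 0.0164), while the receptor gene Ghr was at 89.6 ± 10.6 and 94.9 ± 21.5 CPM (adjusted p = 0.821). In hearts Ghr (0.79, SE 0.20, adjusted p = 0.0119) and Stat5b (0.95, SE 0.17, adjusted p = 0.000759) rose by 4 weeks and Socs2 fell (-1.01, SE 0.17, adjusted p = 0.000357). Ghr was lower at 1.5 years than at 14 weeks in hearts (-0.93, SE 0.21, adjusted p = 0.0079, edgeR), as was Stat5b (-0.53, SE 0.17, adjusted p = 0.0495). Log2 fold changes in that heart comparison moved with exon length, and the part of length in these falls was not tested. No gene of this axis was called after 4 weeks in fibroblasts.

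Of 33 genes that signal downstream of the insulin and IGF1 receptors, 10 were called in fibroblasts at 4 weeks against postnatal day 1, 4 higher and 6 lower (15.5% of all genes were called), and 10 in hearts, 7 higher and 3 lower (18.2% of all genes). Grb10, an adaptor that inhibits both receptors, fell in fibroblasts (-1.93, SE 0.17) and in hearts (-1.91, SE 0.27), and Foxo1, a transcription factor restrained by AKT, rose in fibroblasts (1.05, SE 0.20, adjusted p = 0.00273). From 14 weeks to 1.5 years 17 of the 33 were lower in hearts and none higher, against 7.86% of all genes lower and 4.91% higher (median log2 fold change -0.76, against -0.02 over all genes), with Irs2 at -2.79 (SE 0.28, adjusted p = 0.000369) and Mtor at -1.36 (SE 0.19, adjusted p = 0.000636). This is the heart comparison whose log2 fold changes moved with exon length, and the part of length in this count was not tested. In fibroblasts over the same ages 1 was called, Irs2, which was higher (1.62, SE 0.38, adjusted p = 0.0422, edgeR). All 3 genes of the IGF2 mRNA binding proteins fell by 4 weeks in both tissues, against 6.20% of all genes lower in fibroblasts and 6.10% in hearts. Their sums were 186 to 222 CPM in fibroblasts of postnatal day 1 and 14.5 to 26.3 CPM at 4 weeks. In hearts they were 75.2 to 81.7 and 5.25 to 12.1 CPM.

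The genes whose age means followed a member most closely were named by the root mean square difference of centred log2 CPM over the 5 ages, among 8818 genes in fibroblasts and 8484 in hearts with a mean of at least 10 CPM. In fibroblasts these were Mrgprf (0.131) and Tram2 (0.182) for Igf1, Pcgf2 (0.061) and Exosc4 (0.083) for Igf2r, Dnaja1 (0.227) and Naaladl2 (0.238) for Igfbp3, and Socs3 (0.138) and Gja1 (0.14) for Igfbp4. For Igfbp6 they were Arc (0.085) and Clec11a (0.144), and for Igfbp7 Phlda1 (0.071) and Naglu (0.088). In hearts Igf1r itself was the second nearest gene to Igf2r (0.157), after Natd1 (0.137). The nearest to Igf1r were Mtss1 (0.072) and Nsd2 (0.134), to Igf1 Lrrc45 (0.053) and Thbs3 (0.109), to Igfbp3 Tmem88 (0.076) and Cd34 (0.118), to Igfbp5 Rnaseh2b (0.082) and Txnip (0.096), to Igfbp6 AC153368.1 (0.171) and Gpx4 (0.217), and to Igfbp7 Rrad (0.131) and Fam212b (0.135). Igfbp2 had no close neighbour in fibroblasts, the nearest being Gch1 (1.82).

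The members lay on mouse chromosomes 1, 5, 7, 10, 11, 15 and 17 in the GENCODE annotation of GRCm38. Igfbp2 (chr1:72824503-72852474, plus strand) and Igfbp5 (chr1:72857932-72874884, minus strand) were neighbours, and Igfbp2 was called in neither tissue at the step at which Igfbp5 fell in hearts. In hearts, however, Igfbp2 moved in the same direction at that step, to no count at 4 weeks, at least 39.2-fold lower. Igf2r (chr17:12682406-12769664, minus strand) was overlapped by the antisense gene Airn over 28354 bases with no shared exon, and Igf1 by Igf1os over 5117 bases with no shared exon. Igfbp7 shared 85 exonic bases with Polr2b on the other strand. Whether counting used the strand is not given in the sources used here, so reads in these overlaps cannot be assigned with certainty.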

How the data were processed

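RNA-Seq of PDGFRα-sorted cardiac fibroblasts (12 samples) and whole hearts (15 samples) of mice was read from 2 tables of raw counts. The deposited counts are whole reads per gene, which the authors obtained with STAR 2.5.3a on mm10; the annotation and the strand setting are not given in the sources used here. Counts were tested per tissue with all ages in one model in edgeR 4.0.16 (R 4.3.3), after filterByExpr and TMM scaling, by the quasi-likelihood F test with Benjamini-Hochberg adjustment over 18759 genes in fibroblasts, 17995 in hearts and 20650 in both tissues together. The SE is the absolute log2 fold change divided by the root of F. Per kilobase values used union exon lengths of GENCODE on GRCm38. DESeq2 1.42.0, other scalings and filters, a 2-fold rule, a length offset, a replicate block, fits of 2 ages and leaving out each sample were run as alternatives. The scripts were tested on simulated data. The 9 genes and all gene lists were chosen with earlier results of these data known. The 9 genes are always named, genes of the extracellular IGF and growth hormone lists are named where called, up to 4 genes of another list by smallest adjusted p, and, for members whose age means spanned at least 1 log2 unit, the 2 genes nearest in age pattern. The study's methods describe separate animals, and fibroblasts from different hearts, at each age. Its results state that the hearts sequenced were those that had yielded the fibroblasts. No 2 samples of a group had identical counts. Intervals of counting error were not needed at this depth except for Igfbp2, for which a floor of 3 counts per library was used.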

Additional observations from a re-analysis of the deposited data

Results flagged for a closer look

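The age patterns of 8 members differed between cardiac fibroblasts and whole hearts by the edgeR interaction of tissue and age. Over the 5 ages the adjusted p was 0.000251 for Igf1, 0.00352 for Igf2r, 0.0238 for Igfbp2, 0.00338 for Igfbp3, 0.00184 for Igfbp4, 0.00127 for Igfbp5, 0.0079 for Igfbp6 and 0.00242 for Igfbp7. From postnatal day 1 to 4 weeks the log2 fold change in fibroblasts exceeded that in hearts by 2.46 for Igf1, 1.35 for Igfbp4, 1.59 for Igfbp5 and 2.01 for Igfbp6. Sorting was carried out on the fibroblasts alone, so sorting and tissue cannot be told apart in these differences.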

How the results depend on the processing

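Of 2198 values of members under the alternatives, 2067 kept their direction and side of the threshold, 69 lost the call, 60 gained one and 2 reversed, both for Igfbp7 in hearts at 1.5 years against 14 weeks, which was -0.01 with the length offset with and without the replicate block. In fibroblasts at 1 year against 14 weeks, 3 members were called, against 5 by DESeq2, 6 in a fit of those 2 ages, and 0 with the replicate block with or without the length offset. At 1.5 years against 14 weeks 3 were called in fibroblasts, against 5 by DESeq2, 5 in the fit of 2 ages and 0 with the block with or without the offset. In hearts 0 were called at 1 year, against 1 by DESeq2, 1 with the length offset, 1 with the offset and block and 3 in the fit of 2 ages, and 4 at 1.5 years, against 2 by the 2-fold rule. From 4 to 14 weeks 0 were called in fibroblasts, against 2 with at least 10 counts, 2 by DESeq2, 1 with median-of-ratios scaling, 2 with no filter and 2 in the fit of 2 ages. In hearts 1 was called, against 2 with at least 10 counts, 2 by DESeq2, 2 by library size only, 2 in the fit of 2 ages and 0 by the 2-fold rule. Shares of all genes called under each alternative are not given beside these counts, which are not read as results about the members. The causes were not tested. Leaving out each sample gave 0 to 4 members at 1 year and 0 to 4 at 1.5 years in fibroblasts, 0 to 1 and 2 to 5 in hearts, 0 to 2 from 4 to 14 weeks in each tissue, and 5 to 6 in fibroblasts and 3 to 6 in hearts from postnatal day 1 to 4 weeks. Where this left 1 sample, it was assumed to vary like the other groups. Scaling by library size only moved the median of all genes in hearts from -0.09 to -0.60 at 4 weeks against postnatal day 1. Same-numbered samples correlated above 0.1 in 3 of 30 heart, 2 of 7 fibroblast and 2 of 30 between-tissue pairs. The heart and fibroblast pairs join different ages and so different animals, and both fibroblast values over 0.1 were 0.255. Fibroblasts and hearts of the same number correlated at -0.023, 0.018 and -0.047 at postnatal day 1. At 4 weeks these values were -0.05, 0.076 and 0.013. The labels do not say which samples share an animal, and the main fits did not pair the tissues. The block could not be estimated for fibroblasts from 4 to 14 weeks or over 5 ages, or for the tissue mean or the 5-age interaction.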
